A study of Rattus norvegicus with 26 samples.

Results

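The genes described here are 10 transcripts of the muscle side of the nerve-muscle synapse that are classically read as a sign of lost or irregular innervation: the acetylcholine receptor subunits Chrng, Chrne, Chrna1, Chrnb1 and Chrnd, the receptor-clustering kinase Musk, the myogenic transcription factor Myog, the neural cell adhesion molecule Ncam1, the transcription factor Runx1 and the stress-response gene Gadd45a. They were chosen by symbol, and each of the 10 symbols matched a gene of the 34034 in the count table. All 10 were among the 10064 genes that passed the filter on low counts. Soleus, a slow postural muscle of the hind limb, was taken from aged female rats of 2 lines bred for low or high intrinsic running capacity (LCR and HCR), both in generation 44. There were 16 sedentary rats, 8 of each line, and 10 runners, 5 of each line. Sedentary rats had no wheel. Runners lived in pairs in cages with a voluntary running wheel for a period of months. The labels do not say which runners shared a cage, or whether runners and sedentary rats were taken at the same time, so running and cohort cannot be told apart. The titles of running LCR replicate 5 and running HCR replicate 5 name the opposite line. They stayed in the group given by genotype and description, and results on the runners are also given without them or with the line of the title. No transgene, deletion or drug is named in the labels, all rats were fed standard chow, and no young or denervated muscle is among the samples.

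In adult muscle the acetylcholine receptor is a pentamer of 2 alpha1 subunits with beta1, delta and epsilon, packed under the nerve terminal. Fetal muscle uses gamma (Chrng) in place of epsilon (Chrne), and after the nerve is cut the fibre again transcribes gamma, alpha1 and delta along its whole length. Electrical activity normally keeps these genes silent outside the synapse, and myogenin (Myog) acts on E-boxes of receptor promoters when that brake is lifted. In old muscle, part of the fibres lose and regain their nerve, so a mixture of innervated and denervated fibres is a known background state. In whole-muscle RNA, a change in the number of cells or fibres that express a gene cannot be told apart from a change in RNA per cell.

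The promoter sequences are shown as a description. Whether they relate to how far the receptor genes moved together was not tested. The 250 bases before the start of each gene are from RefSeq on build GRCr8, 5′ to 3′ on the strand of the gene, with E-boxes (CANNTG, read on both strands, which is the same set because the motif is its own reverse complement) in capitals. An entry was found for 9 of the 10 genes, and 4 are printed.

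Chrng (chr9:95325734-95325983, plus strand): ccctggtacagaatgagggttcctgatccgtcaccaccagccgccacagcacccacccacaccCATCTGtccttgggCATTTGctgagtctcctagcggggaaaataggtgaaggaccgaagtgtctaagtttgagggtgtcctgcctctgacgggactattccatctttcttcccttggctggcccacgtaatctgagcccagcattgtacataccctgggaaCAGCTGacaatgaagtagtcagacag
Chrna1 (chr3:78877354-78877603, minus strand): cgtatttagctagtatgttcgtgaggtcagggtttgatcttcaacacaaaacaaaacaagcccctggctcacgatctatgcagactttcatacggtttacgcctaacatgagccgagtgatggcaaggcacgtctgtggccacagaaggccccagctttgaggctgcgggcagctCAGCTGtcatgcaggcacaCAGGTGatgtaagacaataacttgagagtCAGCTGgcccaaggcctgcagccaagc
Chrnd (chr9:95310066-95310315, plus strand): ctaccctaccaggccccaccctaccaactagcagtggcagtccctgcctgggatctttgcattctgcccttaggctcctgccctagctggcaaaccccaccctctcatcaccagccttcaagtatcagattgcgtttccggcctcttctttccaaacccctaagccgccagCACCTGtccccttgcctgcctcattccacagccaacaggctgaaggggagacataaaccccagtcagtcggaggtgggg
Chrne (chr10:55834155-55834404, minus strand): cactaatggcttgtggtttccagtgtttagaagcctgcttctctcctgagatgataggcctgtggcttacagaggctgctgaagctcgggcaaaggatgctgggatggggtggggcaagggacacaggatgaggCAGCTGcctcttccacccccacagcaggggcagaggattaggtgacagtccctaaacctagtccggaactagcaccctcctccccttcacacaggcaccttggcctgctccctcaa

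The letters of Chrng held 3 E-boxes, the nearest starting at position -26 from the start site, and Chrna1 also held 3, the nearest at -27. A CAGCTG core stood at the nearest position in both. Chrnd and Chrne held 1 each, at -79 and -116. Both Chrnd and Chrne also held 1 N-box (CCGGAA or its reverse complement), a motif known from genes transcribed under the nerve terminal, at -115 and -54, and Chrng, Chrna1 and Chrnb1 held none in this window. The Runx motif TGTGGT, also searched on both strands, was found in Chrne alone, at -239. Among 27457 promoters of the same length, 65.2% held at least 1 E-box, 11% held 3 or more, 13.4% held an N-box and 14.1% held the Runx motif. Of the 9 genes with an entry, 8 held an E-box and 4 held 3. These 4 were Chrng, Chrna1, Chrnb1 and Musk. In Chrnb1 the nearest E-box started at -23 and a CAGCTG at -41, and in Musk the nearest, also CAGCTG, started at -79. These matches are descriptions of letters and not sites shown to be bound. Chrnd and Chrng are next to each other among the protein-coding genes of the same build.

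Priming was on the poly(A) tail. Counts therefore gather at the 3′ end and are not divided by gene length, and the levels of the 10 genes are not ranked against each other. Values are CPM, the count of a gene scaled to 1000000 counts of its library, corrected by TMM (trimmed mean of M values) factors. Library totals ran from 1099961 to 2523942 counts. Summed slow-fibre markers, which include the slow myosin Myh7, ran from 27880 to 54699 CPM and exceeded the summed fast-fibre markers (4104 to 15521 CPM) in every library, a check of the tissue that the same limit touches. The other 11 nicotinic receptor subunits on the list, which belong to neurons and other cells, summed to between 0 and 5.28 CPM. None of them passed the filter, and Chrna2, Chrna6, Chrna9, Chrnb2, Chrnb3 and Chrnb4 were at 0 in all 26 libraries.

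Chrng, the fetal gamma subunit, was detected in all 26 libraries, with 3 to 213 counts. Its level varied more between animals of a group than between groups. In sedentary LCR it ran from 2.08 through a median of 22.9 to 79.8 CPM, a 38.3-fold range within 8 rats. In sedentary HCR it ran from 5.28 through 19.7 to 30.3 CPM. The 5 running LCR rats had 22.2, 13.1, 31.9, 8.21 and 7.91 CPM, and the 5 running HCR rats had 14.0, 7.05, 13.5, 29.0 and 13.3 CPM. The highest group mean was that of sedentary LCR (30.6 ± 25.8 CPM, SD, n = 8). Sedentary HCR followed (18.7 ± 9.11, n = 8), then LCR runners (16.7 ± 10.3, n = 5) and HCR runners (15.4 ± 8.13, n = 5). Neighbours in this order overlapped. The first step was smaller than the SD of sedentary LCR but larger than that of sedentary HCR. The extremes were both sedentary LCR rats, with replicate 5 at the top on 213 counts and replicate 3 at the bottom on 3 counts.

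**Figure D1:**
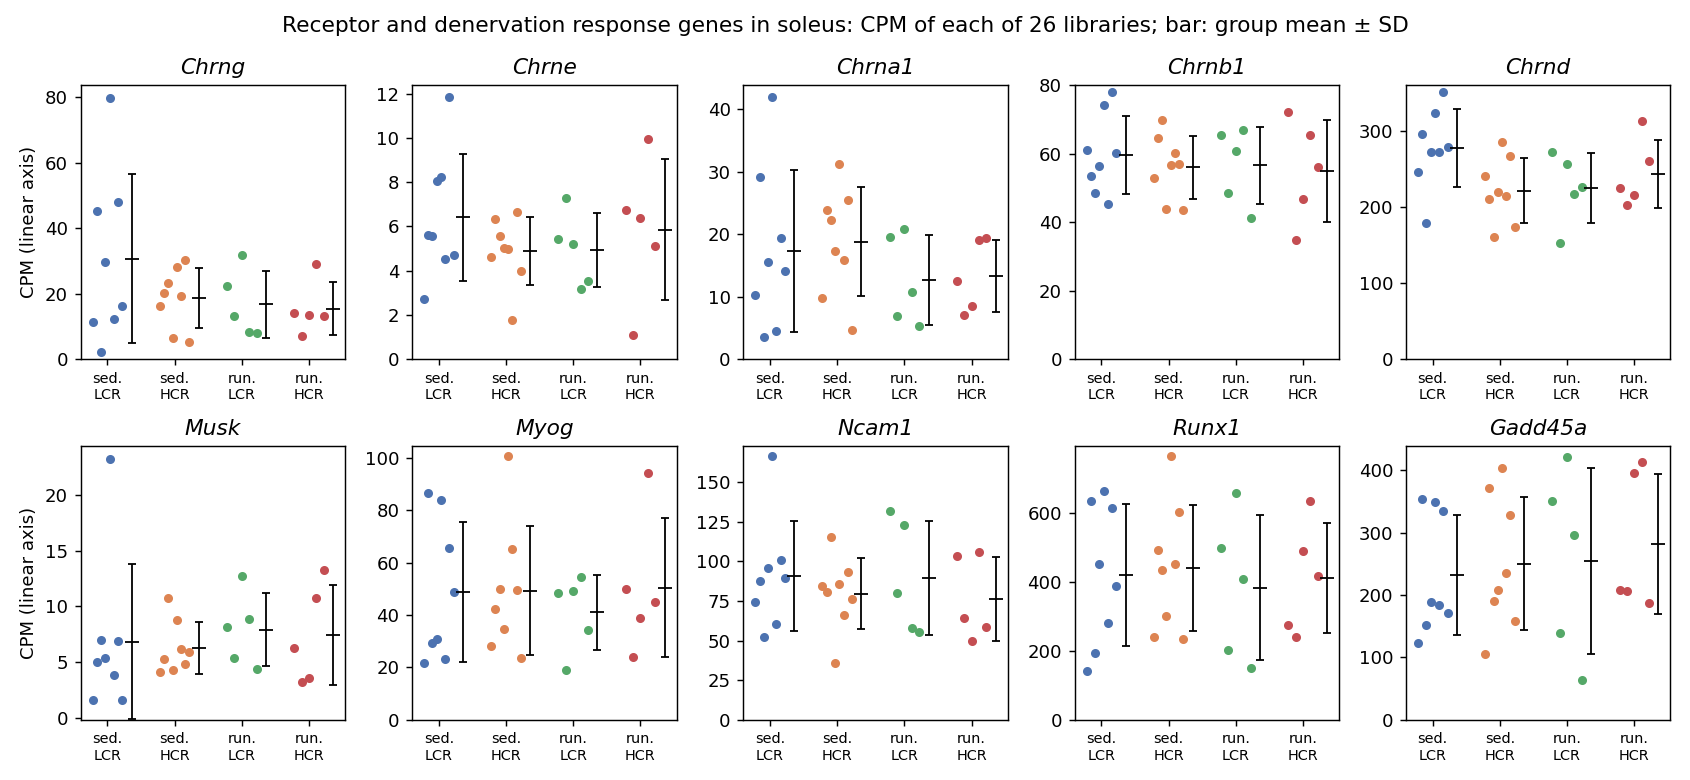
CPM of each of the 10 genes (y axis, linear, per panel) in every library, by group (x axis), with the group mean ± SD as a black bar. The 4 groups overlap in every panel. Chrng and Musk each have their highest library in sedentary LCR, replicate 5, at 79.8 and 23.2 CPM.

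None of the 10 genes passed the test in any of the 6 comparisons. The edgeR quasi-likelihood test with Benjamini-Hochberg adjustment over 10064 genes called 2.72% of all genes for sedentary HCR against sedentary LCR, and 0 of the 10. It called 0.626% of all genes for running HCR against running LCR, 0% for running LCR against sedentary LCR, 0.0994% for running HCR against sedentary HCR, 0.378% for running against sedentary averaged over the lines, and 0% for the difference of the running responses of the lines, again with 0 of the 10 in each. At the unadjusted level of 0.05, Chrnd alone passed, once in the sedentary line comparison and once in the difference of responses. DESeq2 and limma voom also called 0 of the 10 in each comparison. Beside these background shares a count of 0 of 10 says nothing particular about the 10 genes. Across all genes the test gave 0 calls in the last comparison and in LCR runners, with 592 and 612 genes at an unadjusted p under 0.05, and DESeq2 called 0 and 1 there. The 10 genes also had 0 calls with the line of the title and without both libraries. The median log2 difference over the 10 genes was -0.14 in the sedentary line comparison and -0.20 in running LCR against sedentary LCR, where the medians over all genes were 0.01 and 0.00.

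Chrnd, the delta subunit, came nearest. It was at 277 ± 51.2 CPM (SD, n = 8) in sedentary LCR, from 179 to 350, and at 221 ± 42.7 CPM (n = 8) in sedentary HCR, from 160 to 285. The log2 difference, HCR minus LCR, was -0.33 (SE 0.13, adjusted p = 0.190, edgeR). Running LCR rats had 225 ± 45.9 CPM and running HCR rats 243 ± 44.4 CPM (n = 5 each), so the running difference was -0.30 (SE 0.15) in LCR and 0.13 (SE 0.15) in HCR. The difference between these responses was 0.44 (SE 0.21), with an unadjusted p of 0.0482 and an adjusted p of 0.843 by edgeR. The 5 LCR runners had 271, 153, 257, 217 and 226 CPM, and the 5 HCR runners 224, 203, 216, 313 and 260 CPM, so these groups overlapped too.

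For Chrng the differences were larger, with larger errors. The largest was running LCR minus sedentary LCR, at -0.89 (SE 0.55, adjusted p = 0.850, edgeR), and -0.47 without sedentary LCR replicate 5. Running HCR minus sedentary HCR was -0.35, running HCR minus running LCR was -0.20, and the difference of the running responses was 0.54. Sedentary HCR minus sedentary LCR was -0.74 (SE 0.46, adjusted p = 0.464, edgeR). Leaving out sedentary LCR replicate 5 brought it to -0.32, and limma with sample weights gave -0.22. Running minus sedentary averaged over the lines was -0.62 (SE 0.41, adjusted p = 0.564, edgeR). Chrna1, the alpha1 subunit that binds acetylcholine, had 17.3 ± 12.9 CPM in sedentary LCR and 18.8 ± 8.71 in sedentary HCR (SD, n = 8 each). Runners had 12.6 ± 7.19 CPM in LCR and 13.3 ± 5.77 CPM in HCR (n = 5 each). Its average running difference was -0.53 (SE 0.35, adjusted p = 0.568, edgeR), from -0.49 in LCR and -0.57 in HCR. The line differences were 0.05 in sedentary rats and -0.03 in runners. Chrnb1, the beta1 subunit shared by fetal and adult receptors, was the steadiest, with group means between 55.1 and 59.7 CPM and all 6 log2 differences between -0.08 and 0.03.

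Chrne, the adult epsilon subunit, lay near the counting limit, with 2 to 22 counts per library. Its means were 6.41 ± 2.86 CPM in sedentary LCR and 4.87 ± 1.54 CPM in sedentary HCR (SD, n = 8 each). The 5 LCR runners had 5.43, 7.30, 5.21, 3.16 and 3.52 CPM and the 5 HCR runners 6.75, 1.08, 6.38, 9.94 and 5.11 CPM. Its log2 differences ran from -0.40, in the sedentary line comparison, to 0.55, in the difference of the running responses, and its adjusted p was at least 0.545 in each comparison (edgeR). The groups overlapped.

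Musk, the kinase that nerve-derived agrin switches on, had group means between 6.27 and 7.90 CPM. In sedentary LCR it ran from 1.57 through a median of 5.21 to 23.2 CPM, and in sedentary HCR from 4.08 through 5.62 to 10.8 CPM. The 5 LCR runners had 8.14, 5.35, 12.7, 8.84 and 4.40 CPM, and the 5 HCR runners 6.23, 3.25, 3.55, 10.8 and 13.3 CPM. Its 6 log2 differences lay between -0.22 and 0.12. That of the sedentary line comparison was -0.19, and 0.56 without sedentary LCR replicate 5, the one rat far above the others. Myog, which drives receptor genes after denervation, had group means between 41.0 and 50.4 CPM. It ran from 21.6 through a median of 39.8 to 86.7 CPM in sedentary LCR and from 23.8 through 46.0 to 101 CPM in sedentary HCR. The 5 LCR runners had 48.3, 19.0, 49.2, 54.3 and 34.3 CPM, and the 5 HCR runners 49.8, 23.9, 39.0, 94.4 and 45 CPM. The single high runner was HCR replicate 4. Ncam1, an adhesion molecule that spreads over the surface of denervated fibres, had means between 76.2 and 90.7 CPM. It ran from 52.1 through a median of 88.6 to 166 CPM in sedentary LCR and from 36 through 82.3 to 115 CPM in sedentary HCR. Its groups overlapped as well. Runx1, which sustains denervated fibres, had means between 383 and 439 CPM, and Gadd45a, which denervation induces in muscle nuclei, had means between 232 and 283 CPM. None of Myog, Ncam1, Runx1 and Gadd45a had a log2 difference beyond 0.28 in size in any comparison.

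The genes differed in how far they spread between animals. The biological coefficient of variation (the relative spread between animals once counting noise is taken off) was 0.156 in common over genes. It was 0.669 for Chrng, 0.568 for Chrna1, 0.517 for Musk, 0.481 for Runx1, 0.471 for Myog and 0.470 for Gadd45a. For these 6 genes the value was 2.46 to 3.95 times the trend for genes of their abundance, which put each of them above the 97th percentile of the tested genes. Ncam1 stood at 0.335, also above the 97th percentile. Chrne (0.270), Chrnd (0.181) and Chrnb1 (0.169) were 1.11 to 1.28 times their trend. Their ratios to the trend stood at the 87.2, 88.3 and 80.9 percentile of the tested genes.

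The same animals were high or low for several of the genes. In sedentary LCR, replicates 5 and 7 were above their group mean for all 10 genes, replicate 6 for none, and replicates 1 and 3 for 1 each. Replicate 5 was the highest of its group for 5 genes, and replicates 1 and 3 were each the lowest for 4. In sedentary HCR, replicate 5 was above the mean for all 10 and replicate 8 for none. Among the runners, LCR replicates 1 and 3 and HCR replicate 4 were above the mean for all 10, and HCR replicate 2 was below it for all 10. The lowest of running LCR, replicate 5, was lowest for 7 genes. It is 1 of the 2 libraries with a conflicting title.

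This was measured over pairs of genes with each group mean taken off, on log2 CPM with a prior count of 2 over 26 libraries. Pearson's r was above 0 for all 45 pairs, with a median of 0.56 and a range of 0.27 to 0.89. Of the 45, 37 passed at an adjusted p of 0.05 (2-sided, 100000 permutations of libraries within groups, Benjamini-Hochberg over the 45 pairs), and 39 passed by Spearman's rho. The count was 34 with the line of the title and 31 without both libraries whose titles conflict. The r of every pair stayed above 0 when the 2 libraries farthest from the median of its first gene were left out, with a median of 0.58. For scale, the median r of Chrng with all other tested genes was -0.00, and 2.10% of 10063 genes had an r with it above 0.6. The 95th percentile of these r was 0.48. Some pairs that passed had a modest r: Chrne with Ncam1 had 0.42, place 926 of 10063 genes by r with Ncam1. The share of all gene pairs that would pass the same test is not given, so the count of 37 has no background beside it. The genes of a pair share a library and its scaling factor. The permutations break that pairing, so a part of r that comes from shared scaling is not in their null. With library totals in place of TMM factors 42 pairs passed.

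The strongest pair was Runx1 with Gadd45a, at r = 0.89 and rho = 0.94 (permutation p = 1e-05, the smallest that this number of permutations can give, adjusted p = 0.000112). Gadd45a ran from 124 to 353 CPM in sedentary LCR and Runx1 from 141 to 662 CPM. In running LCR, Runx1 had 498, 201, 658, 407 and 151 CPM, and Gadd45a had 352, 139, 422, 296 and 64.2 CPM in the same rats. The order of these 5 rats was the same for both genes. Next came Chrng with Chrna1, at r = 0.86 and rho = 0.82 (permutation, adjusted p = 0.000112). In running LCR, Chrna1 had 19.5, 6.81, 20.9, 10.7 and 5.28 CPM. In sedentary LCR, Chrna1 ran from 3.47 CPM in replicate 3, where Chrng was also lowest, to 42.0 CPM in replicate 5, where Chrng was also highest.

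Runx1 and Myog joined this pair. Myog with Runx1 had r = 0.82, Chrna1 with Runx1 0.82, Chrng with Runx1 0.80, Chrna1 with Myog 0.79, Chrng with Ncam1 0.76 and Chrng with Myog 0.69, and each passed (permutation). Chrna1 and Runx1 passed with all 9 other genes. The delta subunit was close to gamma (r = 0.69), alpha1 (0.67), Myog (0.67) and Runx1 (0.66). The beta1 subunit was also correlated with gamma (0.63) and alpha1 (0.67).

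The adult subunit was the weakest receptor gene by median r, though Chrnd passed with fewer genes (5 of 9, against 6 of 9 for Chrne). Chrne had a median r of 0.42 with the other genes, the lowest of the 10, and its r with Chrng was 0.49 (permutation, adjusted p = 0.0182). Counting noise lowers the r of a gene with so few counts, and how much it did so here was not tested. The 8 pairs that missed the threshold were Chrne with Chrnd, Musk and Myog, Chrnd with Musk, Ncam1 and Chrnb1, Chrng with Musk, and Ncam1 with Gadd45a. Their r was between 0.27 and 0.48, so a lack of covariation was not shown for any of them.

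**Figure D2:**
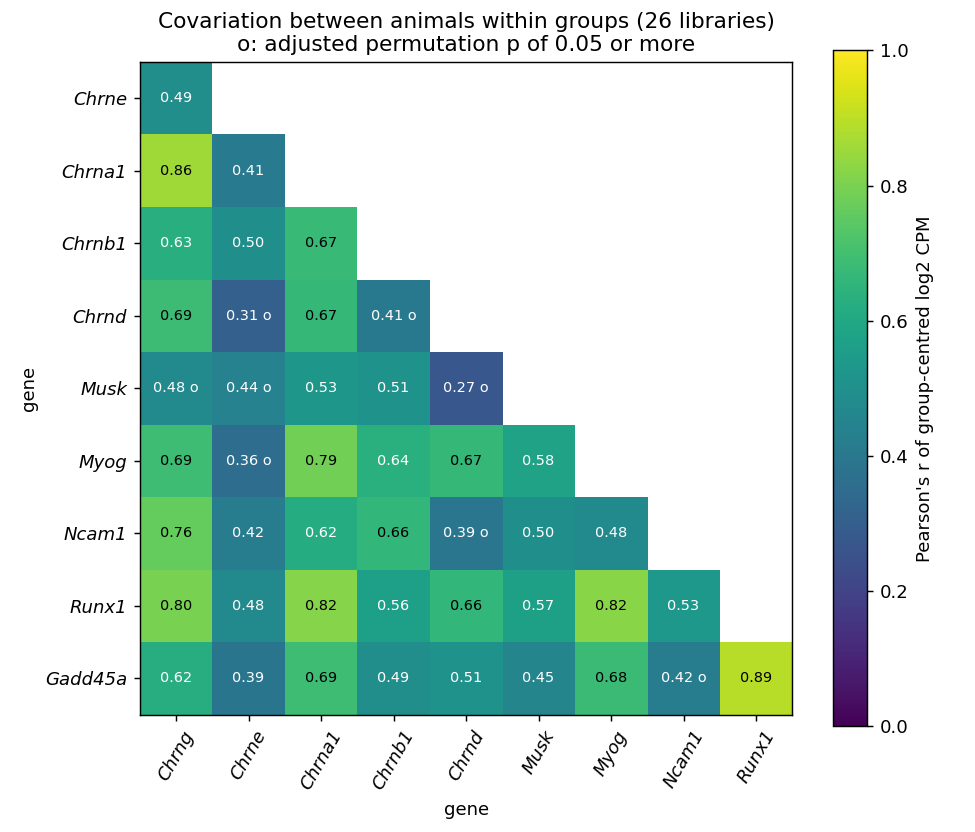
Pearson's r of group-centred log2 CPM for the 45 pairs of the 10 genes over 26 libraries, with colour from 0 to 1 and the value in each cell. A small o marks the 8 pairs whose adjusted permutation p was 0.05 or more, among them Chrnd with Musk at 0.27.

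**Figure D3:**
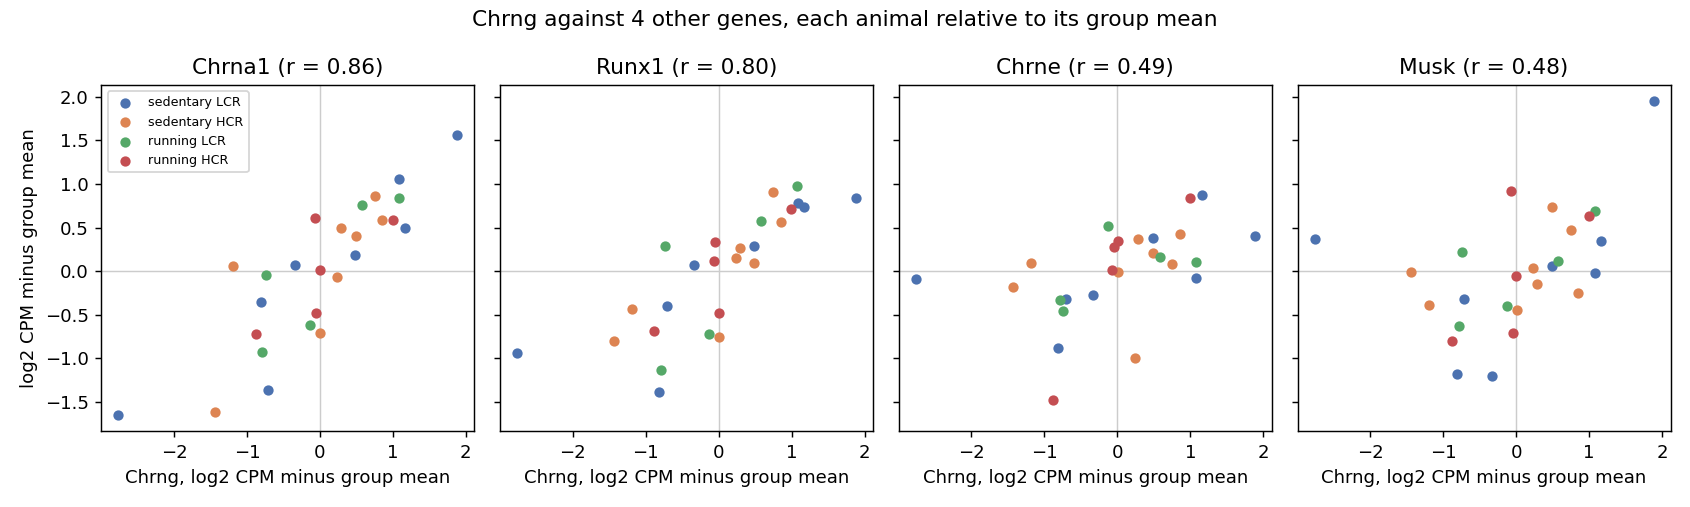
Log2 CPM minus the group mean for Chrng (x axis) against Chrna1, Runx1, Chrne and Musk (y axis), 1 point per library, coloured by group. Points of all 4 groups run upward together for Chrna1 (r = 0.86) and Runx1 (r = 0.80) and scatter more for Chrne (0.49) and Musk (0.48).

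The covariation was looked for within cohorts as well. In the 16 sedentary libraries alone all 45 r were above 0, with a median of 0.56, and 18 pairs passed. In the 10 running libraries alone all 45 were above 0, with a median of 0.62, and 2 pairs passed, Runx1 with Gadd45a (r = 0.92) and Chrna1 with Musk (r = 0.90). Both had an adjusted p of 0.0313 by permutation. Musk rests on few counts there, 5 to 22 in LCR runners and 5 to 13 in HCR runners. The effect of counting noise on its r was not tested. Chrna1 with Musk had r = 0.40 in the sedentary libraries and did not pass there (permutation, adjusted p = 0.212). Chrng with Chrna1 had r = 0.87 in the sedentary libraries and 0.80 in the running ones. With 16 and 10 libraries fewer pairs can pass at the same r.

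Inside single groups, only the sedentary ones were large enough for a correlation. In sedentary LCR all 45 r were above 0, with a median of 0.72. In sedentary HCR 40 of 45 were above 0, with a median of 0.46. The difference between the lines was not tested. By exact permutation with adjustment over the 90 tests, 10 passed, 7 in LCR and 3 in HCR. The LCR pairs were Chrng with Chrna1 (r = 0.92), Chrnd (0.93), Ncam1 (0.89) and Runx1 (0.86), Chrna1 with Ncam1 (0.92), Myog with Gadd45a (0.91) and Runx1 with Gadd45a (0.92). The HCR pairs were Runx1 with Chrna1 (0.88), Myog (0.91) and Gadd45a (0.89). Runx1 with Gadd45a passed in both lines. Without the 2 libraries farthest from the median of the first gene, the r of the 7 LCR pairs was 0.76 to 0.89 and that of the 3 HCR pairs 0.79 to 0.83. Without sedentary LCR replicate 5 the count over both groups was 0 of 90, and without replicate 2 it was 1. The adjustment is shared by both groups and 7 libraries give fewer possible orders, so these counts alone do not show a weaker relation.

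The balance of fetal to adult subunit was taken as the count of Chrng over the count of Chrne in each library. Library size cancels in it, but the 2 genes may be captured with different efficiency, so it is read between animals and not as a ratio of molecules. Chrng counts exceeded Chrne counts in 25 of 26 libraries. The median count ratio was 3.86 in sedentary LCR, with a range of 0.375 to 9.68. It was 3.87 in sedentary HCR, from 1.29 to 11. The 5 LCR runners had 4.10, 1.80, 6.11, 2.60 and 2.25, and the 5 HCR runners 2.08, 6.50, 2.11, 2.92 and 2.60. All 4 groups overlapped.

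The outlying value was sedentary LCR replicate 3, with 3 counts of Chrng and 8 of Chrne, a Chrng share of 27.3% (95% exact Clopper-Pearson interval 6.02 to 61.0). At the other end of the same group, replicate 5 had 213 and 22 counts, a share of 90.6% (86.2 to 94.0). These 2 intervals do not overlap. The highest share was that of sedentary HCR replicate 6, 91.7% (80.0 to 97.7), on 44 and 4 counts. Intervals cover counting error only.

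Between groups the ratio did not pass a test. On the log2 scale with 0.5 added to each count, sedentary rats had means of 1.73 ± 1.37 in LCR and 1.75 ± 1.00 in HCR (SD, n = 8 each). Runners had 1.55 ± 0.71 in LCR and 1.46 ± 0.58 in HCR (n = 5 each). Sedentary HCR minus sedentary LCR was 0.02 (2-sided exact permutation p = 0.973), and running HCR minus running LCR was -0.09 (exact p = 0.857). Running minus sedentary was -0.18 in LCR (exact p = 0.820) and -0.29 in HCR (exact p = 0.569). The adjusted p over the 4 comparisons was 0.973 in each. The smallest p these group sizes allow is 0.00794 for the runners and less for the others. That floor means only that fully separated groups could pass, and the power for smaller differences was not tested. Without both libraries with conflicting titles the running line difference was -0.16, and with the line of the title it was -0.17. Without sedentary LCR replicate 3 the first difference was -0.40, of the opposite sign.

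**Figure D4:**
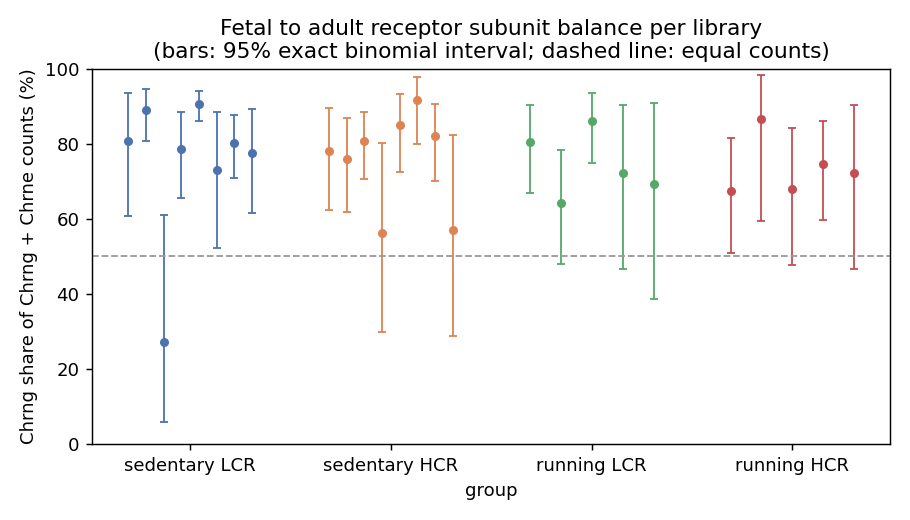
Share of Chrng in the summed Chrng and Chrne counts (y axis, percent) in each library by group (x axis), with 95% exact binomial intervals. All libraries but sedentary LCR replicate 3, at 27.3%, lie above the dashed line of equal counts, and the intervals of several libraries span that line.

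Within groups the ratio moved with the other genes. Over the 26 group-centred libraries its r was 0.68 with Chrna1, 0.57 with Ncam1, 0.56 with Runx1, 0.56 with Chrnd, 0.52 with Myog and 0.43 with Gadd45a, and these 6 of 8 passed (permutation, adjusted p from 0.00568 to 0.0312 over 8 tests). The same 6 passed by Spearman's rho. Without the 2 libraries of extreme ratio, r was 0.66 with Chrna1 and 0.42 with Chrnd. It was 0.36 with Chrnb1 (adjusted p = 0.0761, permutation) and 0.21 with Musk (adjusted p = 0.378, permutation). These tests were added after the data were seen. Neither Chrng nor Chrne counts enter the 8 genes, but Chrng itself covaries with them and makes up the larger part of the ratio. Animals with more Chrna1, Ncam1 and Runx1 than their group had a higher count of Chrng for each count of Chrne.

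The genes most like each receptor gene were ranked over all tested genes with a symbol and an average log2 CPM of at least 2. Those of highest r with Chrng were Igfn1, a muscle Z-disc protein, at 0.90, then Tp53bp1 and Lgals1 (galectin 1) at 0.87, Tph1 (tryptophan hydroxylase) at 0.87 and Sil1 at 0.87. For Chrna1 they were Igfn1 (0.88), Emb (embigin, 0.86), Tph1 (0.86), Chrng (0.86) and Polr1d (0.85). Igfn1 spanned 6.25 to 482 CPM and Tph1 4.86 to 70.4 CPM. Igfn1 and Tph1 stood in both of these lists. For Myog they included Runx1 (0.82), Sec1 (0.81), Casz1 (0.80) and Tph1 (0.79).

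The 5 genes of highest r were also taken for Chrne, Chrnd and Musk. For Chrne the genes were Letm1 and Sel1l3 (0.78 each), Ifitm10 (0.72), Cntfr (0.70) and Npr3 (0.69). For Chrnd they were Cd63 (0.77), Msi2 (0.75), Psmd2 (0.72), Dexi (0.72) and Scap (0.70). For Musk they were Tulp4 (0.80), Lnpep (0.75), Macf1 (0.74), Vps37b (0.73) and Igf2r (0.73). Lists of 5 genes are too short to show that they differ. Among all 10063 other tested genes, Chrng stood at place 9 by r with Chrnd (0.69). It stood at place 140 with Chrne (0.49) and 424 with Musk (0.48).

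Other genes of the denervation response were set against Chrng, from a list chosen with earlier results of these data known. Of 18 tested genes on that list that are not among the 10, 14 had an r above 0 and 7 an r above 0.6, with a median of 0.52, where 49.5% of all tested genes were above 0. Among the highest were the potassium channel gene Kcnn3 (0.82), which denervated fibres are known to express, the stretch-response gene Ankrd1 (0.78), the cell cycle inhibitor Cdkn1a (0.75), Eda2r (0.72), the calcium pump regulator Sln (0.71) and the myogenic factor Myod1 (0.63). The embryonic and neonatal myosins Myh3 (0.52) and Myh8 (0.36) were lower. The atrophy ligases Fbxo32 and Trim63 had an r of 0.08 and -0.48, and Atf4 had -0.51. Fbxo30, a further ubiquitin ligase of the same list, had 0.48.

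Genes of synapse assembly were set against Chrng in the same way, and the difference between the lists was not tested. Of 20 tested, 15 had an r above 0 and 1 above 0.6, Prkar1a (0.61), with a median of 0.17. Lrp4, the agrin receptor, had 0.42, Rapsn, which anchors the receptor, 0.30, Colq, the collagen tail of acetylcholinesterase, 0.12 and Dok7, the activator of Musk, -0.00. Ache itself was at 0 to 4.14 CPM and did not pass the filter.

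**Figure D5:**
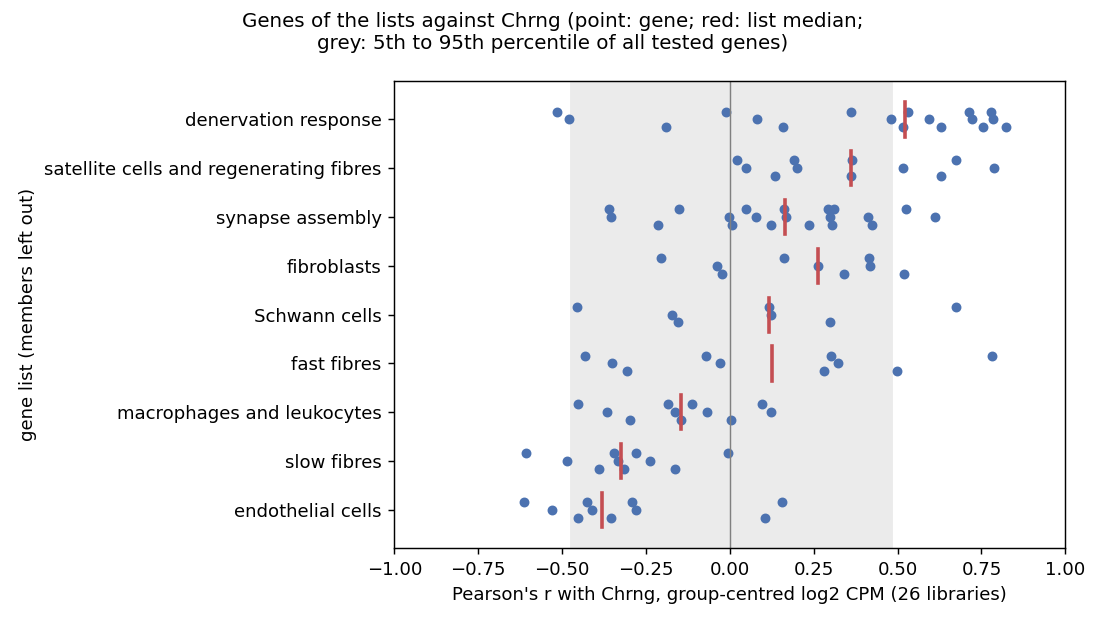
Pearson's r with Chrng of each tested gene of 9 lists (x axis, 26 group-centred libraries), without the 10 genes themselves, with the list median in red and the 5th to 95th percentile of all tested genes in grey. The median of the denervation list, 0.52, lies right of the grey band, and the medians of the slow-fibre and endothelial lists are below 0. The lists were chosen with earlier results of these data known.

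Cell type markers were measured in the same libraries, because Schwann, satellite and other cells also carry some of these transcripts. Ncam1 is made by satellite and Schwann cells, and Myog by differentiating satellite cells. The summed markers of satellite cells and regenerating fibres ran from 535 to 2586 CPM, of which Myh3 made up the larger part on average (935 CPM), and none of the 14 genes was at 0 in all libraries. By group it ran from 762 to 2586 CPM in sedentary LCR, 748 to 1984 in sedentary HCR, 1028 to 2102 in LCR runners and 535 to 2004 in HCR runners. The highest sum was that of sedentary LCR replicate 5, the animal with the highest Chrng. All 10 genes had an r above 0 with this sum, from 0.30 to 0.65, and Chrng (0.59, adjusted p = 0.0479) and Myog (0.65, adjusted p = 0.0313) passed by permutation over the 70 tests. Spearman's rho was 0.57 and 0.60. Without the 2 libraries farthest from the median, r was 0.45 and 0.52. Mymx (0.79) and Pax7 (0.67) of that list were the most like Chrng. The median over its 11 tested genes was 0.36, and 3 had an r above 0.6. Heyl (0.02), Spry1 (0.05), Tnnt2 (0.14), Cdh15 (0.19) and Chodl (0.20) were the lowest. Myod1, Myh3 and Myh8 also stand in the denervation list, so the 2 lists are not independent.

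The endothelial sum went the other way, with an r from -0.70 to -0.31. Chrna1 (-0.70) and Chrnd (-0.68) passed (permutation, adjusted p = 0.0168 each). Spearman's rho was -0.72 and -0.68. The sum ran from 372 to 584 CPM. Of the 10 endothelial genes, 2 had an r above 0 with Chrng, in a range of -0.61 (Cldn5) to 0.16 (Emcn). Ncam1 with the fibroblast sum passed by Pearson's r (0.59, permutation, adjusted p = 0.0332) and missed by Spearman's rho (0.51, permutation, adjusted p = 0.0635). Of the Schwann markers, the lineage factor Sox10 was at 0 in 9 libraries. The Schwann sum (143 to 390 CPM) passed with none of the 10 genes, with an r from -0.31 to 0.23, and neither did the fast-fibre sum. Single fast-fibre genes went both ways with Chrng, from -0.43 (Myh2) to 0.78 (Pvalb), with 5 of 10 above 0. Single Schwann genes did too, from -0.46 (S100b) to 0.67 (Cnp), with 4 of 7 tested above 0. The slow-fibre sum was not tested against the 10 genes. Of 10 slow-fibre genes, 0 had an r above 0 with Chrng, with a median of -0.33. The macrophage and leukocyte sum passed with none by Pearson's r and with Myog by Spearman's rho (-0.56, permutation, adjusted p = 0.0440). Spearman's rho gave 10 marker calls in all, where Pearson's r gave 5. Beside Myog with macrophages, those by rho alone were Chrng, Myog, Runx1 and Gadd45a with the endothelial sum and Chrnd with the satellite cell sum. The total count passed with none, with Ncam1 closest (r = 0.50, permutation, adjusted p = 0.0743). The part of these cell types in the covariation was not tested. The 5 marker calls depend on single animals, since leaving out 1 library gave 0 to 14 calls, and 0 without sedentary HCR replicate 8.

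Between groups, 3 genes of synapse assembly passed the test in 1 comparison. Of 20 tested genes of synapse assembly, 1 rose and 2 fell in sedentary HCR against sedentary LCR, by edgeR, where 2.72% of all genes were called. Colq was at 80.0 ± 10.2 CPM in sedentary HCR and 117 ± 18.7 CPM in sedentary LCR (SD, n = 8 each), a log2 difference of -0.55 (SE 0.10, adjusted p = 0.000855, edgeR). Ky, a muscle protein whose loss causes kyphoscoliosis in mice, was at 53.0 ± 9.46 and 89.4 ± 29.2 CPM (log2 -0.74, SE 0.17, adjusted p = 0.0154, edgeR). Crk, an adaptor that binds Dok7, rose, at 73.3 ± 6.11 and 56.3 ± 4.42 CPM (log2 0.38, SE 0.08, adjusted p = 0.00758, edgeR). In the runners Colq was at 109 ± 16.9 CPM in HCR and 115 ± 10.5 CPM in LCR (log2 -0.08, adjusted p = 0.912, edgeR). The difference of the running responses for Colq was 0.46 (SE 0.16, adjusted p = 0.835, edgeR) and did not pass. The list median, -0.01, was close to that of all genes, 0.01.

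In the other 5 comparisons, 0 of the 20 synapse genes passed in edgeR. Rapsn and Dok7 had an adjusted p of at least 0.449 in each comparison. Lrp4 was lower in HCR than in LCR, at a log2 of -0.45 (SE 0.21, adjusted p = 0.283, edgeR) in sedentary rats and -0.84 (SE 0.28, adjusted p = 0.240, edgeR) in runners. Crk in the runners had a log2 of 0.33 (adjusted p = 0.220, edgeR). The nearest was Colq in running HCR against sedentary HCR (log2 0.44, SE 0.11, adjusted p = 0.0899, edgeR). Dtna, Nes, Lama4, Erbb4 and Utrn were the others of smallest p, and their adjusted p was at least 0.202.

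Of 18 tested denervation genes outside the 10, none passed in any of the 6 comparisons by edgeR. The nearest was Fbxo32, a ubiquitin ligase of muscle atrophy, at 312 ± 44.4 CPM in running HCR and 208 ± 43.1 CPM in sedentary HCR (SD, n = 5 and 8), a log2 difference of 0.59 (SE 0.13, adjusted p = 0.0629, edgeR). By DESeq2 that difference passed (adjusted p = 0.00897), and averaged over the lines it was 0.39 (SE 0.09), with an adjusted p of 0.0549 by edgeR and 0.0294 by DESeq2. Trim63, another atrophy ligase, had 0.48 (SE 0.21, adjusted p = 0.343, edgeR) in running against sedentary HCR. Myod1 had -1.23 (SE 0.49, adjusted p = 0.294, edgeR) there. Tnfrsf12a, the receptor of the cytokine TWEAK, had -0.93 (SE 0.34, adjusted p = 0.249, edgeR). Myh3 and Myh8 did not pass in any comparison, with Myh3 between 774 and 1099 CPM and Myh8 between 9.01 and 17.3 CPM as group means. Fbxo30, Hdac9 and Ampd3, the remaining genes of smallest p, had an adjusted p of at least 0.178.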

How the data were processed

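Soleus RNA of 26 rats was measured with 3′-end libraries, 1 library per rat as the labels describe. The authors deposited a table of whole-number counts per gene, not normalised. Tools listed in the submitters' processing notes, with no settings, are STAR, featureCounts, UMI-tools, cutadapt, FastQC and MultiQC, on the rat build mRatBN7.2 (rn7). Use of molecular identifiers or strand in counting: not given in the sources used here. No column lacked a sample (0 of the table's columns).

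Groups followed the genotype and the description. Running LCR 5 and running HCR 5 have a title that begins with the other line, so fits were also made by title and without these libraries. P-values weigh a difference or a correlation against the variation between these animals, and cage mates may not be independent. Library totals of 1099961 to 2523942 counts leave genes of a few CPM on few counts.

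The test of counts was that of edgeR 4.0.16, run in R 4.3.3 (quasi-likelihood F test, robust, TMM, filterByExpr by group, Benjamini-Hochberg at 0.05, all 26 libraries in 1 fit, no covariate). SE is the size of the log2 difference over the square root of F. Correlations used log2 CPM (prior count 2) with group means taken off and 100000 permutations within groups, or exact permutations in the sedentary groups. The ratio used 0.5 added counts and exact permutations. Alternatives were DESeq2 1.42.0, limma 3.58.1 voom with sample weights, upper-quartile factors, no filter, the replicate number as a block, other prior or added counts, library totals, and leaving out libraries. The gene tests and the permutation test were tried on simulated data. Replicate numbers only name animals: the deviations of 33 same-numbered pairs correlated at -0.22 to 0.26 (median -0.00), so no pairing was used. No 2 libraries of a group agreed within sampling noise (smallest chi-square per degree of freedom 2.09).

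The 10 genes and the lists were chosen with earlier results of these data known. All 10 were fitted in each comparison and are given by value or by range. Of the synapse and denervation lists, called genes are named, otherwise the 3 of smallest p, with Rapsn, Dok7, Lrp4, Colq, Ache, Myod1, Trim63, Fbxo32, Myh3 and Myh8 whatever their p. Promoter letters are from RefSeq on GRCr8, a build other than that of the counts, for which no sequence was used. A few genes that these rules would name are not reported here.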

Additional observations from a re-analysis of the deposited data

Results flagged for a closer look

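A single animal far from the rest of its group was looked for in 44 sets of values (the CPM of the 10 genes and the Chrng to Chrne log2 ratio, in 4 groups each), by Dixon's test, which flags about 1 group in 20 by chance. It flagged 3, all in sedentary LCR, and at that rate a few flags in 44 sets are due by chance alone. The genes were tested on linear CPM and not on log2 CPM. Musk was 23.2 CPM in replicate 5, where the next highest rat had 6.94 CPM. Ncam1 was 166 CPM in the same rat, and the next highest had 100 CPM. The Chrng to Chrne log2 ratio was -1.28 in replicate 3, where the next lowest was 1.38, and it rests on 3 counts of Chrng and 8 of Chrne. Replicate 5 also had the highest satellite cell and regenerating fibre marker sum of all 26 libraries, 2586 CPM.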

How the results depend on the processing

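No member was called in any of the 6 comparisons under any other test, scaling, filter, line assignment, replicate block (0 called in each) or left-out library. DESeq2 gave no adjusted p for 3 values. The smallest adjusted p over these alternatives was 0.0735, for Chrnd in the sedentary line comparison without sedentary LCR replicate 3. Of the 60 log2 differences, 36 changed sign under at least 1 alternative, always uncalled. The Chrng to Chrne ratio passed under no alternative. Its differences with single libraries left out ran from -0.40 to 0.24, -0.33 to 0.16, -0.61 to 0.04 and -0.54 to -0.07 for the sedentary lines, the running lines, LCR running and HCR running. With pooled counts, untested, they were -0.41, -0.37, -0.66 and -0.62. With the replicate block they were 0.02, -0.09, -0.20 and -0.18, and 37 pairs of genes passed. The 37 pairs became 18 in the 16 sedentary libraries and 2 in the 10 running ones (added after the data were seen), with fewer samples, and 28 to 41 with single libraries left out. In these 26 fits 25 pairs always passed, and no pair's r changed sign under any alternative. In the sedentary groups 10 calls became 17 with library totals and 0 to 12 with single libraries left out. The 5 marker calls became 8 with library totals and 0 to 14 with single libraries left out. The cause was not tested. Depth limits Chrne (2 to 22 counts) and Musk most.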
